A study of Mus musculus with 2 samples.

Results

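Fgf4, Utf1, Lefty1, Lefty2 and Zfp42 are textbook targets of the transcription factors Oct4 and Sox2 in embryonic stem cells, and the listed binding sites near these 5 genes are described here. Sites were taken from a list of 33783 chromatin immunoprecipitation peaks. A site was included when its summit, the position of the greatest tag height, lay in 1 of 4 mm9 windows. These were 152.01 to 152.09 Mb on chromosome 7 for Fgf4, 147.09 to 147.17 Mb on chromosome 7 for Utf1, 182.79 to 182.9 Mb on chromosome 1 for Lefty1 and Lefty2 together, and 44.34 to 44.43 Mb on chromosome 8 for Zfp42. The windows held 18 peaks, and each of the 4 windows held at least 3.

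The cells were ZHBTc4 F-Oct4, a mouse embryonic stem cell line. ZHBTc4 cells have disrupted endogenous Oct4 alleles and depend on an Oct4 transgene, which in this derivative is Flag-tagged. Chromatin bound by Flag-Oct4 was collected with anti-Flag antibody in both samples. In the sWGA sample it was collected a second time with sWGA, a lectin that binds N-acetylglucosamine, to enrich chromatin carrying O-GlcNAc-modified protein. The control sample had a second step without the lectin, which the labels call IgG in one place and plain agarose beads in another, and they also title it an input. Because the chromatin was cross-linked, the lectin could have held Oct4 or another modified protein at the same place. Each group had 1 library, so no value has a replicate error and no test between the samples was possible. The sWGA library held 6129874 tags (mapped reads) after filtering and the control library 78351, a depth ratio of 78.2. Before filtering they held 16695056 and 366466, so most tags of both were removed. The caller kept up to 2 tags per position in the sWGA library and 1 in the control.

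Oct4 binds the octamer sequence ATGCAAAT, often beside a site for its partner Sox2. Fgf4 is a secreted growth factor that primes embryonic stem cells for differentiation through its receptors and ERK, and its enhancer, downstream of the coding sequence, was among the first shown to need Oct4 and Sox2 side by side. Lefty1 and Lefty2 are secreted antagonists of Nodal, a ligand of the TGF-beta family. Utf1 is a chromatin-associated protein of pluripotent cells with an Oct4-Sox2 enhancer of its own, and Zfp42, also called Rex1, is a zinc finger protein used as a marker of naive pluripotent cells.

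The promoter windows of Fgf4, Utf1 and Zfp42 were searched for the octamer, as a description of 3 sequences only. The RefSeq promoter table (GRCm38.p6, 250 bases before to 50 after each gene start) matched 3 of the 5 genes, and Lefty1 and Lefty2 had no entry in it. It is in another build than the peaks, so no peak was placed on these sequences. They are printed 5′ to 3′ along the gene, with the octamer ATGCAAAT or its core GCAAAT, on either strand, in capitals. The Zfp42 sequence is chr8:43306960-43307259 on the minus strand, that of Fgf4 chr7:144861136-144861435 on the plus strand and that of Utf1 chr7:139943606-139943905 on the plus strand, all in GRCm38.p6.
Zfp42: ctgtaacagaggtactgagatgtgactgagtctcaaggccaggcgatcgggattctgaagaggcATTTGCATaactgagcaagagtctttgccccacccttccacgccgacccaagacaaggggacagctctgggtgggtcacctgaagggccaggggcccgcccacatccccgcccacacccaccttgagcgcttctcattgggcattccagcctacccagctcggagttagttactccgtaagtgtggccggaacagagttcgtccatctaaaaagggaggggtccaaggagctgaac
Fgf4: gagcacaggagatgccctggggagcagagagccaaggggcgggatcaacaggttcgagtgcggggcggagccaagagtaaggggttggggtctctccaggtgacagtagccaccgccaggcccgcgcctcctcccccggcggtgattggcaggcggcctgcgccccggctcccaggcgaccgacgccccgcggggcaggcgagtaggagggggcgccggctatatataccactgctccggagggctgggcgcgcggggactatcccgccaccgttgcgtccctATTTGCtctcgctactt
Utf1: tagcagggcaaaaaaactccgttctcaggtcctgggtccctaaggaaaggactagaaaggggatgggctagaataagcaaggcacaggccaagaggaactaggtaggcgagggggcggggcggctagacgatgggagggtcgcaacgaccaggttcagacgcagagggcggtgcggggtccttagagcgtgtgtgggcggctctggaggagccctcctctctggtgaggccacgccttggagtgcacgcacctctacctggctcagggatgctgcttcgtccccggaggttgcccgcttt

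The Zfp42 promoter holds a full octamer on its reverse strand, beginning 186 bases before the gene start, and 1.74% of the 32851 promoters in the table hold one. The core inside it is the same match and is not counted again. The Fgf4 sequence holds a core only, on the reverse strand from base 34 after the gene start, and 10.5% of all promoters hold at least the core. No octamer or core is in the Utf1 promoter sequence. The SOX core CATTGT, searched on both strands, is in none of these 3 sequences and in 12.6% of the table. G and C made up 69.7% of the Fgf4 sequence, 62.0% of that of Utf1 and 57.7% of that of Zfp42. A match of letters is a description of the sequence and not a binding site.

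Peaks were found in every window, and in each of them 1 or 2 sites held at least 18 tags and the others fewer. The 18 peaks held 367 tags in all, from 9 to 62 each, with a median of 12.5 where the whole list had 11. The list holds no peak under 9 tags. The median length of 419.5 bp was close to the 419 bp of the list. The deposited fold, which is the tag height at the summit over the background the caller expected there, had a median of 18.7 against 15.75. The deposited score, 10 times −log10 of the p-value, had a median of 109 against 79.96.

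The plot of listed sites by distance shows the layout of each locus, and that of tags with intervals shows how far single sites can be told apart. Intervals on tags are exact Poisson 95% intervals, which cover counting error only. They treat tags as independent, although up to 2 sWGA tags could share a position.

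**Figure D1:**
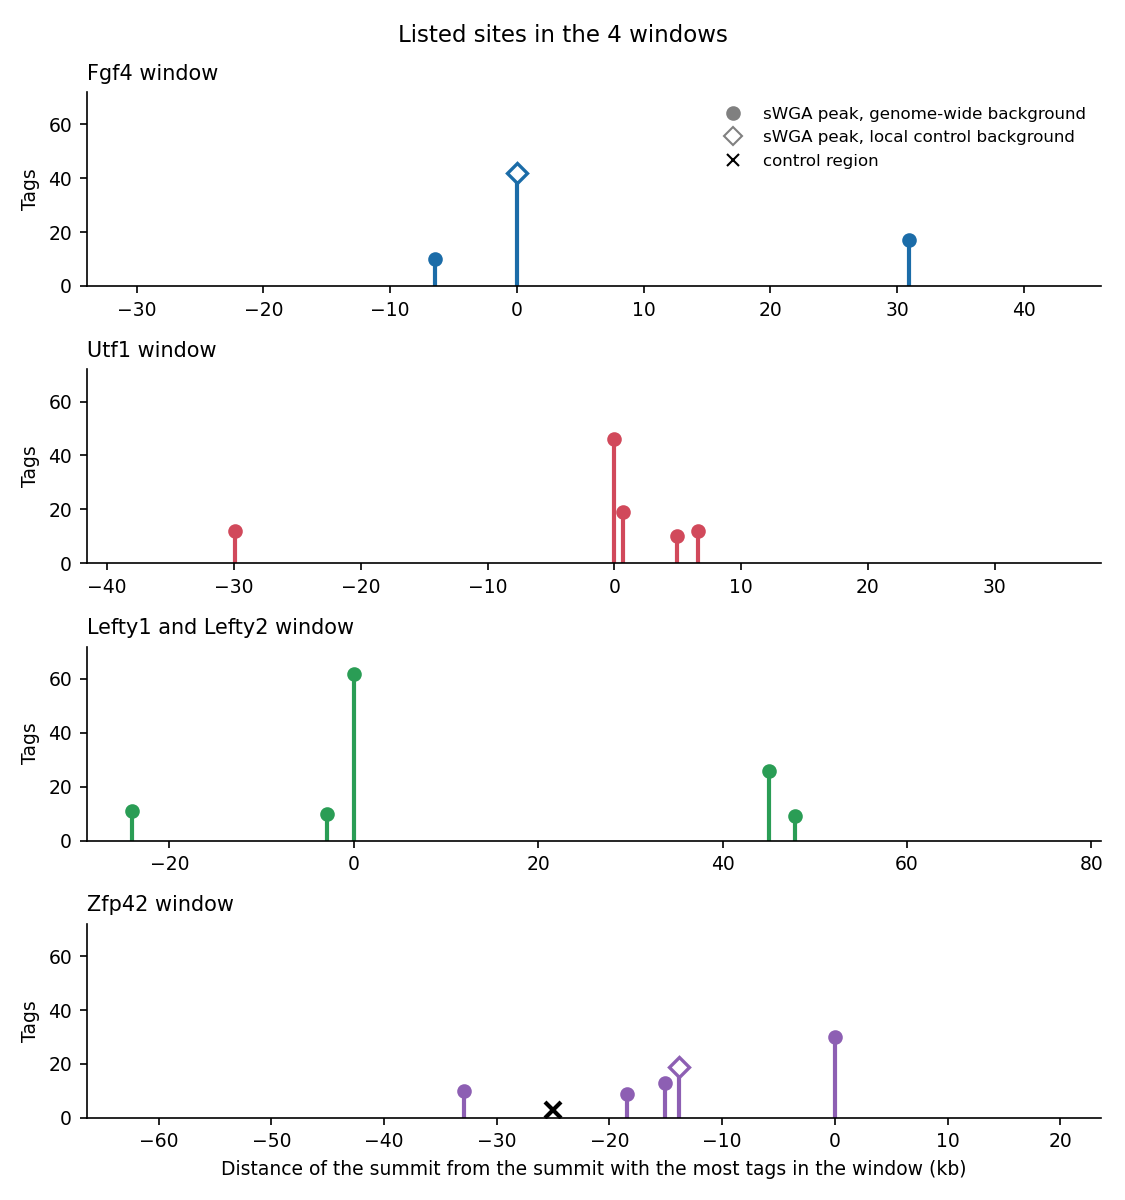
Listed sites in the Fgf4, Utf1, Lefty1 and Lefty2, and Zfp42 windows. The x axis gives the distance in kb of each summit from the summit with the most tags in its window, and the y axis the tags of the region in its own library. Circles are sWGA peaks whose fold fits the genome-wide background, open diamonds are the 2 whose fold fits control tags within 10 kb, and the cross is the 1 control region. The second-strongest Lefty site lies 45.0 kb from the strongest, whereas the 2 strongest Utf1 sites lie 0.669 kb apart.

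**Figure D2:**
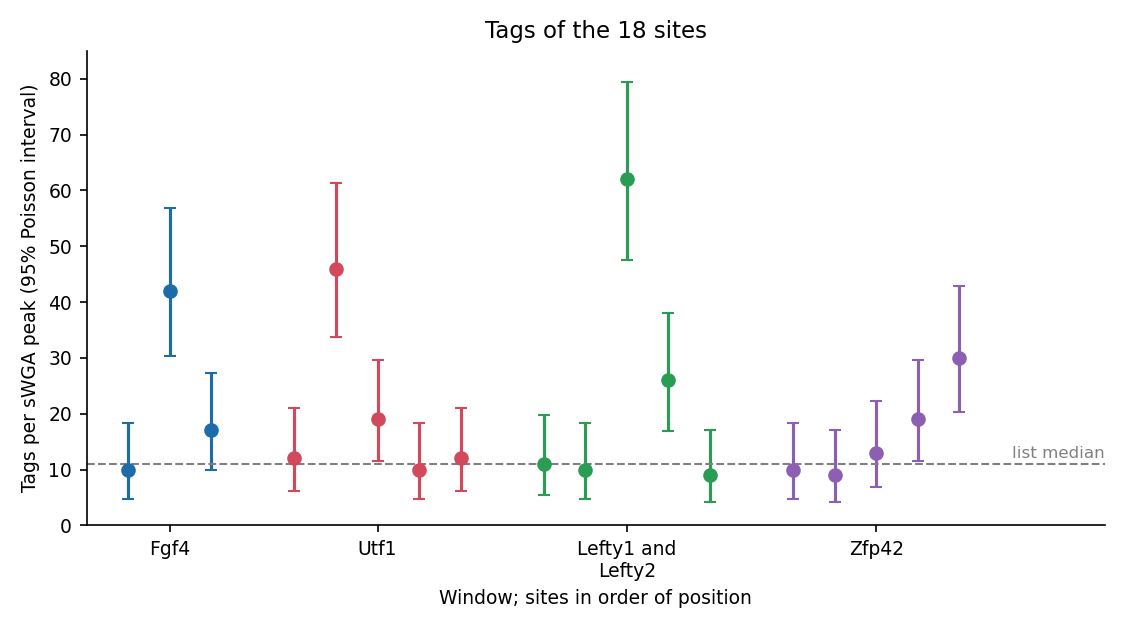
Tags of the 18 sWGA peaks (y axis) by window, in order of position along the chromosome (x axis). Points are tag counts, bars are exact Poisson 95% intervals, and the dashed line is the median of the whole list, 11 tags. The strongest site of each window has an interval wholly above that line, while 10 of the 18 sites hold 9 to 13 tags.

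The Fgf4 window held 3 peaks with 69 summed tags (95% interval 53.7 to 87.3), and 60.9% of these tags were in 1 of them. It had the fewest peaks and tags of the 4 windows, but this order rests on the window: with 20 kb more on each side it held 5 peaks and 103 tags, against 5 and 99 at Utf1 and 6 and 100 at Zfp42. At a deposited score of at least 100 it had the most peaks, 3 against 2 in each other window. This lead rests on the deposited scores. A 10-tag Fgf4 peak would score 95.74 over its own length. A 19-tag Zfp42 peak, at 94.24, would score 161.97 against the genome-wide expectation. The Fgf4 site with most of the tags, chr7:152043550-152044163, was 614 bp long and held 42 tags (30.3 to 56.8). Its deposited fold was only 9.90 and its score 145.95. A fold this low at so many tags comes from the background: both values are reproduced by 24 tags at the summit over an expectation of 2.43 tags, which is what 2 control tags within 10 kb set. Against the genome-wide expectation of 0.508 tags the same height is a fold of 47.2 and the same tags a score of 405.72. In tags the site thus exceeded 96.7% of the list, and in deposited fold only 7.25% of it.

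The other Fgf4 peaks had folds that fit the genome-wide background. One, at chr7:152037355-152037568, lay 6.47 kb below the strong summit, with 10 tags (4.80 to 18.4) at a fold of 19.68. It was the shortest of the 18 sites at 214 bp. Its score of 124.25 was high for its tags: the 9902 listed peaks of 10 tags had a median score of 69.79, and 229 of them reached 124.25 or more. Over its own length the Poisson score would be 95.74, under 100, and how the caller scored peaks this short was not resolved. The third, at chr7:152074495-152074995, lay 30.9 kb above the strong summit and held 17 tags (9.90 to 27.2) at a fold of 21.65 and a score of 126.02. In the RefSeq gene order Fgf3 and Fgf15, which encode further fibroblast growth factors, are the protein-coding neighbours of Fgf4 on either side. No mm9 gene model was used here, so the distance of a peak from a gene start is not given and none of the peaks is assigned to a gene.

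The Lefty1 and Lefty2 window held the strongest site of all, and 4 of its peaks formed 2 pairs whose stronger members lay 45.0 kb apart. It had 5 peaks in all, with 118 summed tags (97.7 to 141). The strongest, chr1:182818643-182819156, held 62 tags (47.5 to 79.5) in 514 bp, with 48 tags at the summit, a fold of 94.47 and a score of 737.43. Only 345 of the 33783 listed peaks had as many tags, and 128 had as high a fold. The second site, chr1:182863867-182864177, held 26 tags (17.0 to 38.1) in just 311 bp at a fold of 47.24 and a score of 282.38. Of the 5142 listed peaks of at most 311 bp, 30 had 26 tags or more, and their median was 10 tags.

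Both of these Lefty sites had a weak companion less than 3 kb away on the outer side of the pair. Below the strongest summit, at 2.93 kb, stood chr1:182815851-182816164 with 10 tags at a fold of 15.75. Above the second summit, at 2.86 kb, stood chr1:182866506-182866956 with 9 tags at a fold of 13.78 and a score of 54.42, the lowest score of the 18 and close to the caller's limit of 50. The fifth peak, chr1:182794826-182795175, lay 21.1 kb below the nearest of these, with 11 tags at a fold of 17.71. All 5 had the genome-wide background. RefSeq places Lefty2 before Lefty1 along the chromosome, but which group of peaks belongs to which Lefty gene was not determined.

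At Utf1 the sites were crowded together. Of its 5 peaks, holding 99 tags (80.5 to 121), 4 had summits within 6.62 kb of each other. The strongest, chr7:147131232-147131789, held 46 tags (33.7 to 61.4) in 558 bp, with 32 tags at the summit, a fold of 62.98 and a score of 478.65. The next summit was 669 bp away, the closest pair among the 18: chr7:147132140-147132639 held 19 tags (11.4 to 29.7) at a fold of 35.43 and a score of 147.71. The caller listed them as separate regions with a gap of 350 bp. A second close pair followed 4.29 kb further on. Its members, chr7:147136407-147136731 and chr7:147137906-147138593, held 10 and 12 tags at the same fold of 15.75, with summits 1.67 kb apart.

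The longest of the 18 sites, at 688 bp, was the latter of these, and its tags were spread thinly at 1.74 per 100 bp, against 8.24 in the strongest Utf1 site. The fifth Utf1 peak, chr7:147101527-147102013, stood 29.95 kb below the strongest summit with 12 tags at a fold of 19.68. Beyond these 5 peaks, the next listed one lay 130 kb below the window and the next above it 52.3 kb beyond. All 5 Utf1 peaks were scored against the genome-wide background.

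At Zfp42 the strongest site took a smaller share of the tags than in the other windows, where it took 46.5% to 60.9%. A listed control region lay among the sites. The 5 Zfp42 peaks held 81 tags (64.3 to 101), and the strongest took 37.0% of them. That site, chr8:44406120-44406539, held 30 tags (20.2 to 42.8) in 420 bp at a fold of 47.24 and a score of 301.89. It stood apart, with the next summit 13.8 kb below. There, chr8:44392332-44392750 held 19 tags (11.4 to 29.7), and 1.24 kb further below chr8:44391228-44391473 held 13 tags (6.92 to 22.2) in 246 bp at a fold of 25.59 and a score of 148.49. Over its own length the 246 bp peak would score 125.75.

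The 19-tag Zfp42 peak was the other site with a local background. Its deposited fold of 10.72 and score of 94.24 are both given by 13 tags at the summit over 1.21 tags, the expectation that 1 control tag within 10 kb sets. Against the genome-wide expectation its fold would be 25.6, the same as that of its 13-tag neighbour with the same summit height, and its score 161.97. The remaining peaks were weak: chr8:44387673-44388011 held 9 tags at a fold of 13.78, and chr8:44373380-44373777 held 10 tags at a fold of 11.81.

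The control list of 750 regions held 1 region in the 4 windows, at Zfp42, and 0 at Fgf4, Utf1 and the Lefty genes. Control regions were sparse everywhere: 2.13% of autosomal windows of 80 kb held one, 2.39% of those of 90 kb and 2.86% of those of 110 kb, so that their absence from 3 windows says nothing particular about these loci. The Zfp42 control region, chr8:44381096-44381468, held 3 tags, as did 76.7% of the control list, with a score of 2599.32 and a fold of 0.68. The caller had scaled the 3 tags up to 235, so its scores are not comparable with those of sWGA peaks. Within its own list the region was weak, since only 50 of the 750 scored lower and the median fold was 3.94. It lay between the 2 weak Zfp42 peaks, with gaps of 7.32 and 6.20 kb.

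The values of this control region also tell how many sWGA tags surrounded it. A control fold sets control tags at the summit against what the sWGA library predicts there, a reading taken from the list itself, in which 36.1% of folds are whole tags, within 0.01, over the genome-wide sWGA expectation. The fold and the score were both given by 2 control tags at the summit over a background of 19 sWGA tags in 1 kb, or equally 190 in 10 kb, and with 1 or 3 control tags at the summit the score was missed. Either background is 19 sWGA tags per kb, 5.80 times the genome-wide 3.28. On that reading sWGA tags were above the genome average around this region, where no sWGA peak is listed.

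The control was too shallow to rank the loci by background. Evenly spread, its tags would give 3.35 in the Fgf4 or Utf1 window, 3.77 at Zfp42 and 4.61 at Lefty1 and Lefty2, while the sWGA library would give 262 to 361. A local background of 1 or 2 control tags therefore rests on counts that small.

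The order of the loci by their strongest site depended on the measure. By tags it was the Lefty pair (62), Utf1 (46), Fgf4 (42) and Zfp42 (30). Neighbours in this order did not differ beyond counting error: the ratios were 1.35 (exact 95% interval 0.906 to 2.02), 1.10 (0.705 to 1.71) and 1.4 (0.856 to 2.32). Between loci further apart in the order, the ratio was 1.48 for the Lefty site over Fgf4 (0.982 to 2.24) and 1.53 for Utf1 over Zfp42 (0.947 to 2.52). Only that of the first over the last, 2.07 (1.32 to 3.31), had an interval above 1 among these 6 ratios, and this pair is the most extreme of an order made from the same tags. By deposited fold, Fgf4 fell to last place, at 9.90 against 94.47, 62.98 and 47.24. Against the genome-wide expectation its fold was level with that of Zfp42, since both had 24 tags at the summit, as did the second Lefty site. The plot of fold against tags shows these shifts.

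**Figure D3:**
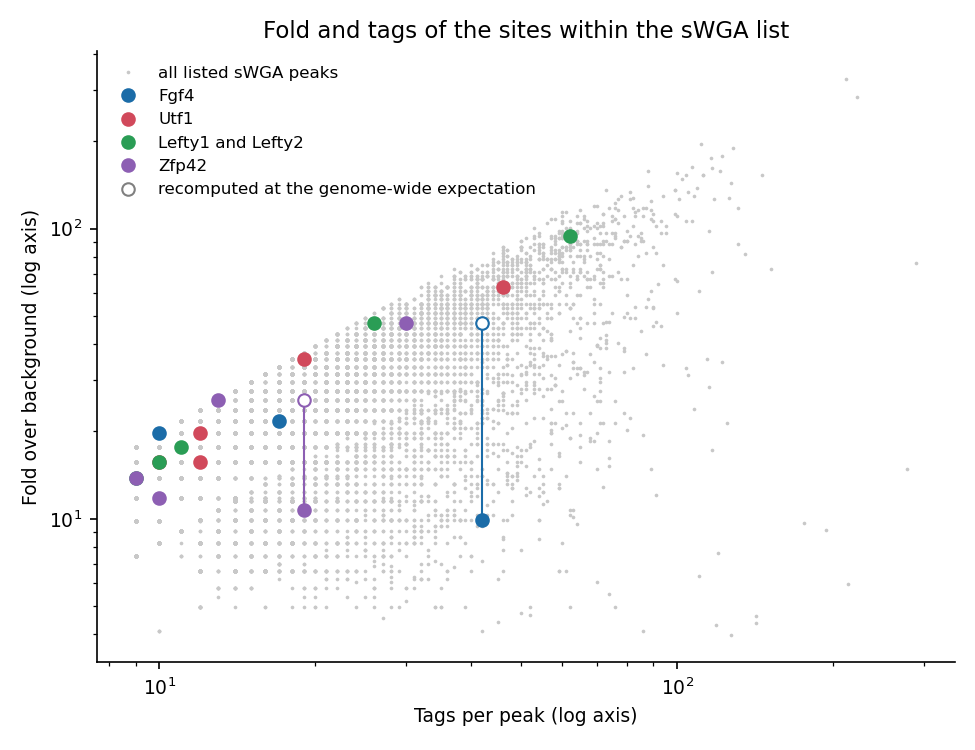
Fold over background (y axis, log scale) against tags per peak (x axis, log scale) for all 33783 listed sWGA peaks (grey) and the 18 sites (coloured by window; some coincide). Filled points are deposited folds, and open points joined to them are folds recomputed at the genome-wide expectation for the 2 sites with a local background. The strongest Fgf4 site moves from 9.90 to 47.2 and a Zfp42 site from 10.72 to 25.6.

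Against the whole list, the counted shares of strong and of neighbouring peaks were larger at these loci. This describes only 18 sites that share a library. The shares have no intervals, and whether they differ from the list beyond counting error was not tested. A deposited score of at least 100 was reached by 9 of 18 (50%), namely all 3 at Fgf4 and 2 in each other window, where 33.9% of the list did so. At least 18 tags were held by 7 of 18 (38.9%), against 21.4%. Another summit within 5 kb was present for 11 of 18 (61.1%), against 25.9%: these were 4 at Utf1, 4 at the Lefty genes, 3 at Zfp42 and 0 at Fgf4. Both members of a close pair were counted, here and in the list, so these sites are not independent. A background other than the genome-wide one was found for 2 of 18 (11.1%), against 8.79%, and a fold of at least 10 for 17 of 18 (94.4%), against 91.7%, so these shares were near that of the list.

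The caller's FDR ran against strength. Over the 18 sites it rose with the score, up to 100%, so a low FDR here marked a weak site. Both peaks with an FDR of 100%, a value shared by 2.21% of the list, were the strongest sites of Utf1 and of the Lefty window. The FDR was at most 5% for 8 of 18 (44.4%), against 55.7% of the list, and all 8 held 9 to 12 tags. The weakest-scoring site, at 54.42, had the lowest FDR, 2.29%. In the control list, whose tags were scaled up, only 50 of 750 regions scored below 2599.32, far above the 737.43 of the strongest site. Whether these control scores set the FDR was not tested.

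A listed peak within such a window was not unusual by itself, whereas as many tags as these windows held were less common. The autosomes were divided into consecutive windows of the same length up to the last listed region. Of windows of 80 kb 56.7% held at least 1 sWGA peak, of 90 kb 60.5%, and of 110 kb 66.5%. As many peaks as at Fgf4 were in 12.6% of such windows, and as many as at Utf1 in 2.57%, at the Lefty genes in 5.59% and at Zfp42 in 3.34%. At least the same summed tags were in 4.38% of windows for Fgf4, 1.57% for Utf1, 1.82% for the Lefty genes and 3.55% for Zfp42. A site as strong as the strongest was in 3.33%, 2.66%, 1.47% and 8.21% of windows in the same order. These windows include unmappable and gene-poor stretches and the 4 were not chosen at random, so the shares describe where the loci stand and test nothing.

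**Figure D4:**
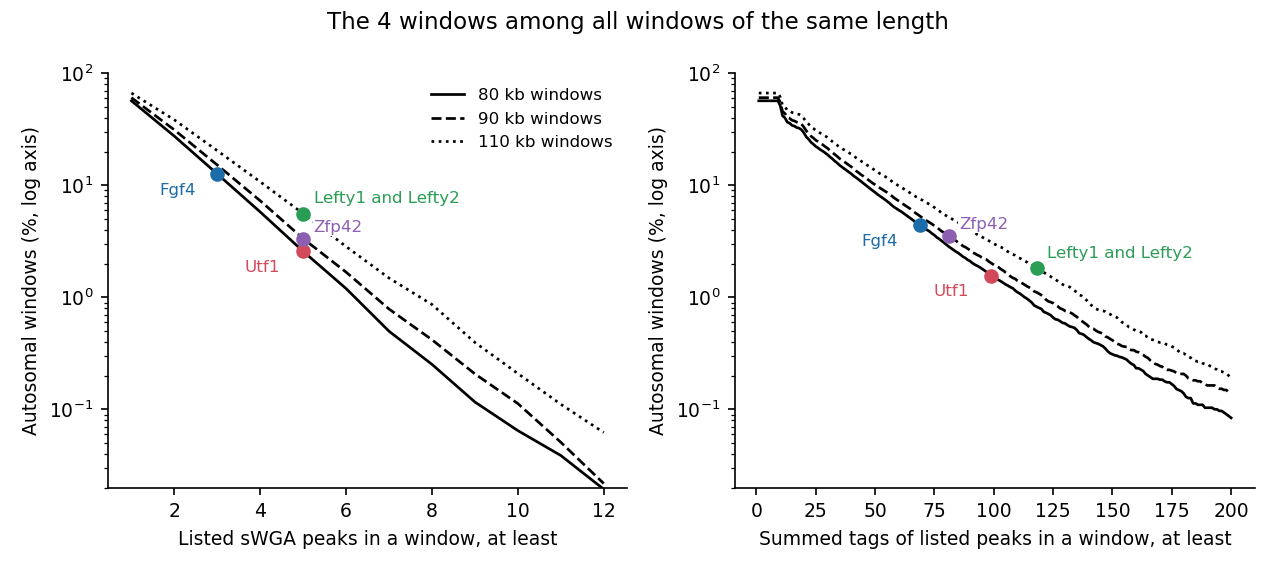
Share of autosomal windows (y axis, percent, log scale) that hold at least the number of sWGA peaks (left x axis) or of summed tags (right x axis), for windows of 80, 90 and 110 kb (lines). Points are the 4 loci at their own window length. All lie between 1.57% and 12.6%, and Utf1 is lowest in both panels.

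The windows set which peaks were counted. Just outside, a peak of 10 tags lay 3.84 kb above the Fgf4 window and one of 24 tags, more than 2 of the 3 Fgf4 sites, 11.1 kb above it. There was one of 12 tags 8.87 kb below and one of 12 tags 10.2 kb above the Lefty window, and one of 19 tags 9.09 kb above the Zfp42 window. The next peak below the Zfp42 window, 74.3 kb away, held 32 tags in 974 bp, more than any of the Zfp42 sites themselves.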

How the data were processed

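The data were 2 deposited peak lists, 1 per library. Per the file headers, the authors called sWGA peaks with MACS 1.4.1 against the control at a p cutoff of 1e-05, with a fragment length of 155 bp, an effective genome of 1870 Mb, local windows of 1 and 10 kb and the smaller library scaled to the larger. Per the submitters' processing notes coordinates are in mm9. No aligner is named in the sources used here. The control list, named as the negative list of that run, has no header. Deposited tags are whole counts per region, deposited scores are 10 times −log10 of p, the deposited fold is a ratio, and the deposited FDR is a percent.

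Python 3.11.15, numpy 2.4.6, pandas 2.3.3 and scipy 1.17.1 were used, with matplotlib 3.10.9 for figures. A background was a candidate when whole tags gave the deposited fold, and the candidate with the Poisson score closest to the deposited one was kept. That score was within 0.02 for all 16 sites of at least 311 bp, a match that the choice itself favours. Ratios have conditional binomial intervals. Steps were tested on simulated data. All sites in the windows were named. The genes and windows were chosen with earlier results of these data known. Alternatives were score, fold, FDR and tag limits, wider windows, overlap, joining and a moved grid.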

Additional observations from a re-analysis of the deposited data

How the results depend on the processing

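No paired analysis was possible because there was only 1 library in a group. Of 51 alternative values, 27 kept to the value reported within 1.5 times or counting error and 24 moved. Among the 27 are the genome-wide folds of the strongest Utf1, Lefty and Zfp42 sites. These could not move, since those sites already had that background. With a score of at least 100 the peaks numbered 2 at Utf1, 2 in the Lefty window and 2 at Zfp42, with 65, 88 and 43 summed tags, while Fgf4 kept all 3. An FDR of at most 5% left 0 at Fgf4, 3 at Utf1, 3 in the Lefty window and 2 at Zfp42, none of more than 12 tags. At least 18 tags left 1, 2, 2 and 2 in that order. Joining over 10 kb gave 2 groups at Utf1 and 3 each in the Lefty and Zfp42 windows. Windows widened by 20 kb took Fgf4 to 5 peaks and 103 tags and the Lefty window to 142 tags. Equal windows with a peak of score 100 or more made up 26.5% at 80 kb, 29.2% at 90 kb and 33.5% at 110 kb. Chosen after seeing the data, the genome-wide expectation moved the Fgf4 fold from 9.90 to 47.2 through 2 control tags. The count of sites with a score of at least 100 was 8 in place of 9 with scores over their own length, as the 214 bp Fgf4 peak fell to 95.74. The planned count at other Oct4-Sox2 loci was not run, for want of an mm9 annotation here.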
